A study of Yarrowia lipolytica with 8 samples.

Results

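The hexose transporters YHT1 (YALI0_C06424g), YHT2 (YALI0_C08943g), YHT3 (YALI0_F19184g) and YHT4 (YALI0_E23287g) and the glucokinase GLK1 (YALI0_E15488g) of *Yarrowia lipolytica* are described here, 5 genes of the 6394 listed in the expression tables. They were taken by locus tag, whatever their expression, and the KEGG annotation in the files names a sugar symporter or a hexokinase, as the gene names do, for all 5. Strain ACA DC 50109 was grown in batch fermentors on a mixture of glucose and glycerol in nitrogen limited medium, and RNA was sequenced before and after glycerol became limiting. The question was how the control of dissolved oxygen (pO2) changes the use of both carbon sources and the metabolic shift at glycerol limitation. In one culture pO2 was controlled at 50%, sampled before (pO2-1) and after (pO2-2) glycerol limitation. In the other pO2 was uncontrolled, sampled before (pO2-UN-2) and after (pO2-UN-3). All 4 groups share the strain and the medium, and each has 2 replicates, described as biological, which gives 8 libraries. The labels give the pO2 regime but not the phase, which was taken from the study's account. The pO2 regime and the fermentation it was run in cannot be told apart. Nor can glycerol limitation be told apart from the age of the batch culture, since the samples after it were taken later. The change between the phases is called the response to glycerol limitation here. The regimes also stand in separate tables with no stated scaling between them, and the FPKM of all genes summed to 871797 to 914929 in the controlled and 1020035 to 1101126 in the uncontrolled libraries.

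Hexose transporters are membrane proteins of the sugar porter (SP) family that let glucose and fructose into the cell. Inside, glucose is phosphorylated by glucokinase or hexokinase to glucose 6-phosphate, from which glycolysis, the pentose phosphate pathway and the synthesis of storage carbohydrates start. Hexokinase also phosphorylates fructose, while glucokinase prefers glucose. *Y. lipolytica* is known for a relative preference for glycerol over glucose and for forming citric acid from either under nitrogen limitation.

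Values are FPKM, fragments relative to gene length and library size, so levels of different genes may be set side by side in a library. The libraries were close in depth, about 5110000 to 5360000 fragments as recovered from the steps between low FPKM values, and a library of this depth gives about 0.39 to 0.41 FPKM for 3 fragments of YHT2. Replicates were nearer to each other in the controlled culture, where the SD of the log2 difference between replicates over well expressed genes was 0.09 before and 0.095 after glycerol limitation, than in the uncontrolled culture, where it was 0.306 and 0.293. Tests were made with limma on log2(FPKM + 1) over all genes with enough signal. A gene was called when its Benjamini-Hochberg adjusted p was under 0.05 and its log2 fold change was 2 or more in size. Fitted fold changes are on the log2(FPKM + 1) scale and understate the change of low genes. The median log2 fold change of all genes tested was 0.13 for the controlled culture, 0.49 for the uncontrolled culture, -0.31 between the cultures before and -0.10 after glycerol limitation, and it was near 0 once the libraries were scaled by the median of ratios. With 2 libraries in a group the smallest exact 2-sided permutation p for a single gene is 0.333, so levels by themselves are given as a description.

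The transporters differed widely in level, and YHT4 was the most abundant of the 4 in every library. YHT4 lies on chromosome E from 2738637 to 2741082 on the plus strand of the CLIB122 assembly. In the controlled culture its level was 247.89 and 236.98 FPKM before glycerol limitation and 63.15 and 58.92 FPKM after. Without pO2 control it was 22.66 and 11.43 FPKM before and 28.21 and 33.17 FPKM after. The 4 groups did not overlap and stood in the order controlled before, controlled after, uncontrolled after and uncontrolled before. The highest group, 242.4 ± 7.7 FPKM (SD, n = 2), lay 14.2-fold above the lowest, 17.1 ± 7.9 FPKM.

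YHT1 had the widest range. It lies on chromosome C from 852842 to 854389 on the plus strand. In the controlled culture its level was 117.9 and 120.2 FPKM before and 14.05 and 9.09 FPKM after glycerol limitation. Without pO2 control it was 0.52 and 0.26 FPKM before and 4.29 and 6.41 FPKM after. The order of the groups was that of YHT4, again without overlap, and the lowest group stood near the limit of detection with about 4 and 2 fragments. Among the 6278 genes tested over all 8 libraries, 8.90% had this same order of the groups without overlap, including YHT1, YHT4 and the kinase gene YALI0_E20207g.

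YHT3 and YHT2 stayed low in all libraries. YHT3 lies on chromosome F from 2564436 to 2566037 on the plus strand. Its level was 2.53 and 2.16 FPKM in the controlled culture before and 1.10 and 1.71 FPKM after glycerol limitation. It was 3.27 and 1.99 FPKM in the uncontrolled culture before and 2.51 and 1.11 FPKM after. The controlled culture after glycerol limitation lay below both groups sampled before it, the other groups overlapped, and the library values came from about 9 to 26 fragments. YHT2 lies on chromosome C from 1203836 to 1205320 on the minus strand. Its level was 0.91 and 1.17 FPKM before and 0.26 and 0.26 FPKM after glycerol limitation with pO2 control, and 0.54 and 0 before and 0.95 and 0.40 FPKM after without it. These values rest on 0 to 9 fragments a library, so YHT2 was at or close to the level of 3 fragments throughout.

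GLK1 was above all 4 transporters in each group. It lies on chromosome E from 1841513 to 1842952 on the plus strand. Its level was 277.58 and 286.80 FPKM before and 306.80 and 324.42 FPKM after glycerol limitation in the controlled culture. Without control of pO2 it was 157.62 and 102.79 FPKM before and 291.13 and 331.49 FPKM after. The uncontrolled culture before glycerol limitation stood apart below the other 3 groups, which lay between 277.58 and 331.49 FPKM. Within every group the order of the levels from GLK1 to YHT4 and on to the other transporters was separated in the libraries, with 1 exception: YHT1 and YHT2 overlapped in the uncontrolled culture before glycerol limitation. In that group YHT3 was above YHT1, while YHT1 was above YHT3 in the other 3 groups.

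**Figure D1:**
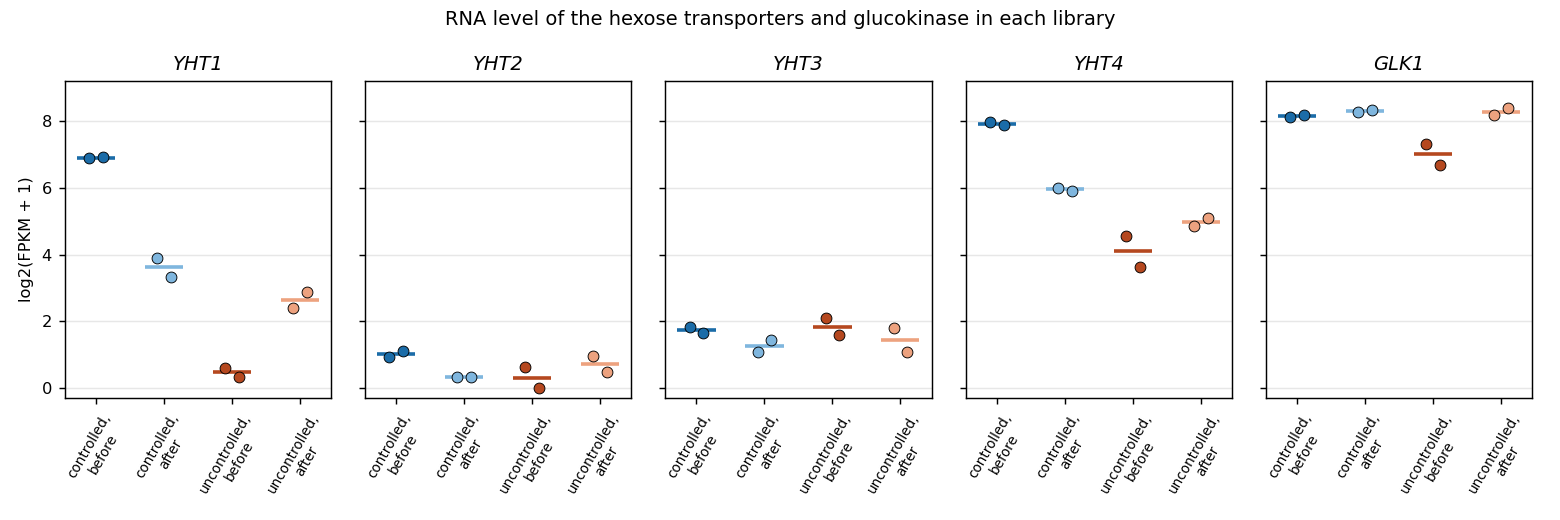
Level of each gene as log2(FPKM + 1) in the 8 libraries, with points for libraries and lines for the mean of the group. YHT1 and YHT4 are highest in the controlled culture before glycerol limitation and lowest in the uncontrolled culture before it, GLK1 is low only in the latter group (102.79 and 157.62 FPKM), and YHT2 and YHT3 stay under 4 FPKM.

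In the controlled culture, transcripts of YHT1 and YHT4 fell after glycerol limitation, while GLK1 differed 1.12-fold. YHT1 decreased 10.3-fold from 119.1 ± 1.6 to 11.6 ± 3.5 FPKM (SD, n = 2), a log2 fold change of -3.28 (SE 0.18, adjusted p = 1.1e-05). YHT4 decreased 3.97-fold, a log2 fold change of -1.97 (SE 0.05, adjusted p = 5.1e-07), which lies just short of the minimum of 2. Thus 1 of the 4 members tested was called lower, YHT1, where 4.29% of all 6218 genes tested were, and none was called higher, where 9.52% were. YHT4 passed the call as well under median-of-ratios scaling (-2.09) and without replicate 2 of the earlier group (-2.01) or replicate 1 of the later one (-2.02), so that the count was then 2 of 4. At an adjusted p under 0.05 alone, 2 members were lower, against 36.0% of all genes, and 1 was higher, against 45.6%.

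The member that was higher was GLK1, with a log2 fold change of 0.16 (SE 0.04, adjusted p = 0.011), 0.03 above the median of all genes, and the adjusted p became 0.41 under median-of-ratios scaling. YHT3 had a log2 fold change of -0.49 (95% interval -1.06 to 0.09, adjusted p = 0.10). YHT2 was not tested, since its FPKM reached 1 in fewer than 2 of the libraries compared. When the filter was left out, its log2 fold change was -0.69 (SE 0.18, adjusted p = 0.018) on about 16 fragments in all before and 4 after. The ratio of its means was 4.00 with a counting interval of 1.27 to 16.2.

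In the uncontrolled culture YHT1 and GLK1 rose. YHT1 increased from 0.39 ± 0.18 to 5.35 ± 1.5 FPKM (SD, n = 2), a ratio of 13.7 with a 95% counting interval of 6.05 to 38.5, since only about 6 fragments in all stood behind the lower value. Its log2 fold change was 2.18 (SE 0.31, adjusted p = 0.00063), or 1.69 above the median of all genes. GLK1 increased 2.39-fold from 130.2 ± 38.8 to 311.3 ± 28.5 FPKM, a log2 fold change of 1.28 (SE 0.21, adjusted p = 0.0013). YHT4 had a log2 fold change of 0.88 (SE 0.32, adjusted p = 0.038), of which 0.39 was above the median of all genes. Its adjusted p became 0.27 under median-of-ratios scaling. With each replicate left out in turn its log2 fold change ranged from 0.42 to 1.35. YHT3 had a log2 fold change of -0.39 (95% interval -1.24 to 0.45, adjusted p = 0.36).

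Of the 4 members tested, 1 was called higher, YHT1, where 11.3% of the 6185 genes tested were, and none was called lower, where 5.01% were. Under median-of-ratios scaling YHT1 had a log2 fold change of 1.91 (adjusted p = 0.002), under the minimum, and no member was called. With the adjusted p alone 3 members were higher, where 48.9% of all genes were, and none was lower, where 21.5% were. YHT2, not tested here either, had 4 fragments in all before and 10 after glycerol limitation, and its libraries overlapped.

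Before glycerol limitation, YHT1, YHT4 and GLK1 were lower without pO2 control. YHT1 was 305-fold lower without pO2 control by the ratio of the group means, with a counting interval of 140.0 to 832.8 that covers counting error only. The fitted log2 fold change was -6.44 (SE 0.15, adjusted p = 2.3e-05), and 0.9% of all genes tested had a lower value. YHT4 was 14.2-fold lower, with a log2 fold change of -3.83 (SE 0.32, adjusted p = 0.00042). GLK1 was 2.17-fold lower, with a log2 fold change of -1.14 (SE 0.22, adjusted p = 0.0068), and of -0.83 under median-of-ratios scaling (adjusted p = 0.017). YHT3 had a log2 fold change of 0.10 (95% interval -0.55 to 0.74, adjusted p = 0.73).

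In this comparison 2 of 4 members tested were called lower, where 14.4% of the 6158 genes tested were, and none was called higher, where 9.18% were. With the adjusted p alone, 3 members were lower, where 47.2% of all genes were, and none was higher, where 30.9% were. The ratio of means of YHT2 was 3.85 in favour of the controlled culture, with a counting interval of 1.24 to 15.8, and its unfiltered log2 fold change was -0.71 (SE 0.27, adjusted p = 0.068).

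After glycerol limitation the differences between the cultures were smaller for these 3 genes, by the interaction term given further on. YHT4 was 1.99-fold lower without pO2 control, with a log2 fold change of -0.97 (SE 0.13, adjusted p = 0.0028). YHT1 was 2.16-fold lower, with a log2 fold change of -0.98 (SE 0.29, adjusted p = 0.038), but the adjusted p rose to 0.24, 0.054 and 0.058 when replicate 1 or 2 of the controlled or replicate 1 of the uncontrolled group was left out. GLK1 had a log2 fold change of -0.02, with 315.6 ± 12.5 FPKM under controlled and 311.3 ± 28.5 FPKM under uncontrolled pO2 (95% interval -0.25 to 0.20, adjusted p = 0.85). YHT3 had a log2 fold change of 0.19 (95% interval -0.72 to 1.10, adjusted p = 0.69). None of the 4 members tested was called in either direction, where 1.34% of the 6209 genes tested were called higher and 1.82% lower. With the adjusted p alone 2 members were lower, where 28.5% of all genes were, and none was higher, where 21.5% were.

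**Figure D2:**
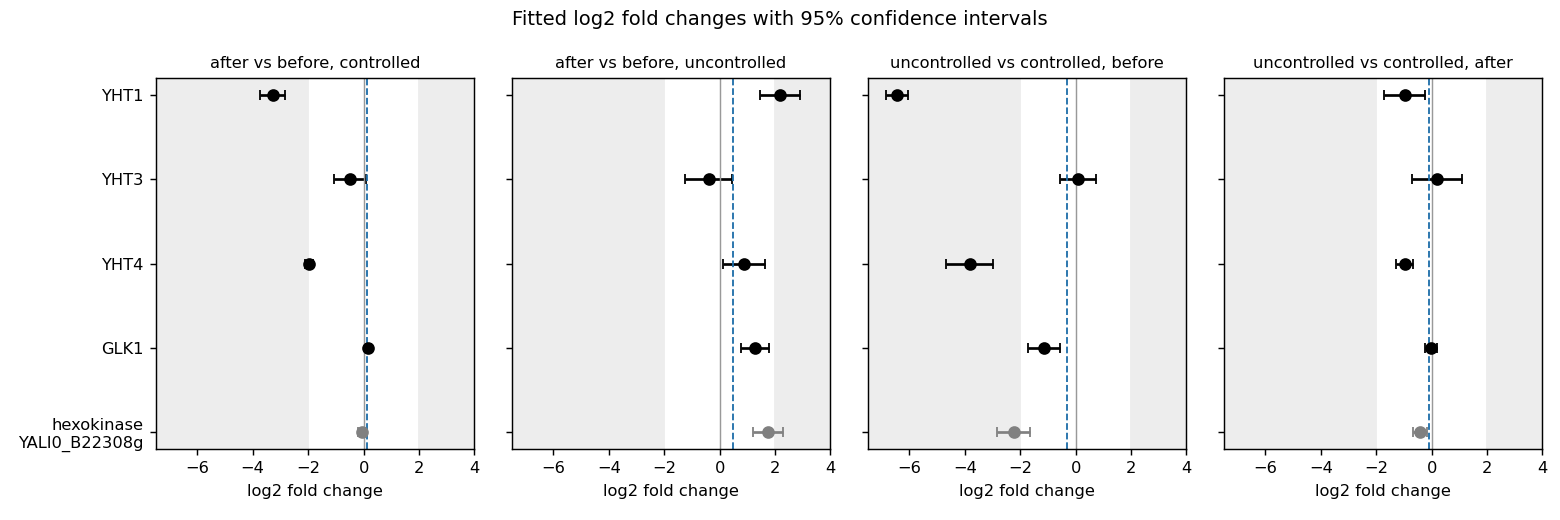
Fitted log2 fold change of each tested gene with its 95% confidence interval in the 4 comparisons, for members in black and hexokinase YALI0_B22308g in grey. The dashed line is the median of all genes tested and the shaded areas lie beyond a log2 fold change of 2, which YHT1 passes in 3 comparisons and YHT4 in 1.

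The responses to glycerol limitation were compared directly by an interaction term over all 8 libraries, which is also the change of the difference between the cultures. The log2 response of YHT1 was 5.46 higher without than with pO2 control (SE 0.35, adjusted p = 5.8e-06). For YHT4 the difference was 2.85 (SE 0.37, adjusted p = 0.00026), and for GLK1 it was 1.12 (SE 0.25, adjusted p = 0.0049). For YHT3 it was 0.09 (95% interval -0.95 to 1.14, adjusted p = 0.87). Of the 4 members tested, 2 passed the call with a higher response, where 11.8% of the 6278 genes tested did, and none with a lower response, where 6.85% did. With the adjusted p alone, 3 members had a higher response, where 38.1% of all genes did, and none a lower response, where 29.1% did. Without the filter, YHT2 had a difference of 1.11 (SE 0.40, adjusted p = 0.040), which rests on the same few fragments.

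YHT4 led the transcripts of the YHT genes in every library, while their sum differed between the groups. The summed FPKM of YHT1 to YHT4 was 369.2 and 360.5 in the controlled culture before glycerol limitation and 78.6 and 70.0 after. It was 27.0 and 13.7 before and 35.96 and 41.09 after in the uncontrolled culture. YHT4 made up 67.1% and 65.7% of the sum in the controlled culture before glycerol limitation and between 78.5% and 84.2% in each of the other 6 libraries. YHT1 supplied 31.9% and 33.3% of the sum in the former group, 17.9% and 12.99% in the controlled culture after glycerol limitation, 1.93% and 1.90% in the uncontrolled culture before and 11.9% and 15.6% after. YHT3, low in FPKM throughout, reached 12.1% and 14.6% in the uncontrolled culture before glycerol limitation, where the sum was lowest.

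The ratio of YHT4 to YHT1 therefore moved from 2.10 and 1.97 to 4.50 and 6.48 in the controlled culture, and from 43.6 and 44.0 to 6.58 and 5.18 in the uncontrolled one. In both cultures after glycerol limitation the ratios overlapped. The ratio of GLK1 to the summed YHT genes was 0.752 and 0.796 in the controlled culture before glycerol limitation and 3.91 and 4.64 after. It was 5.84 and 7.51 in the uncontrolled culture before and 8.10 and 8.07 after. These shares have no test, and shares and sums of FPKM are not amounts of protein.

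**Figure D3:**
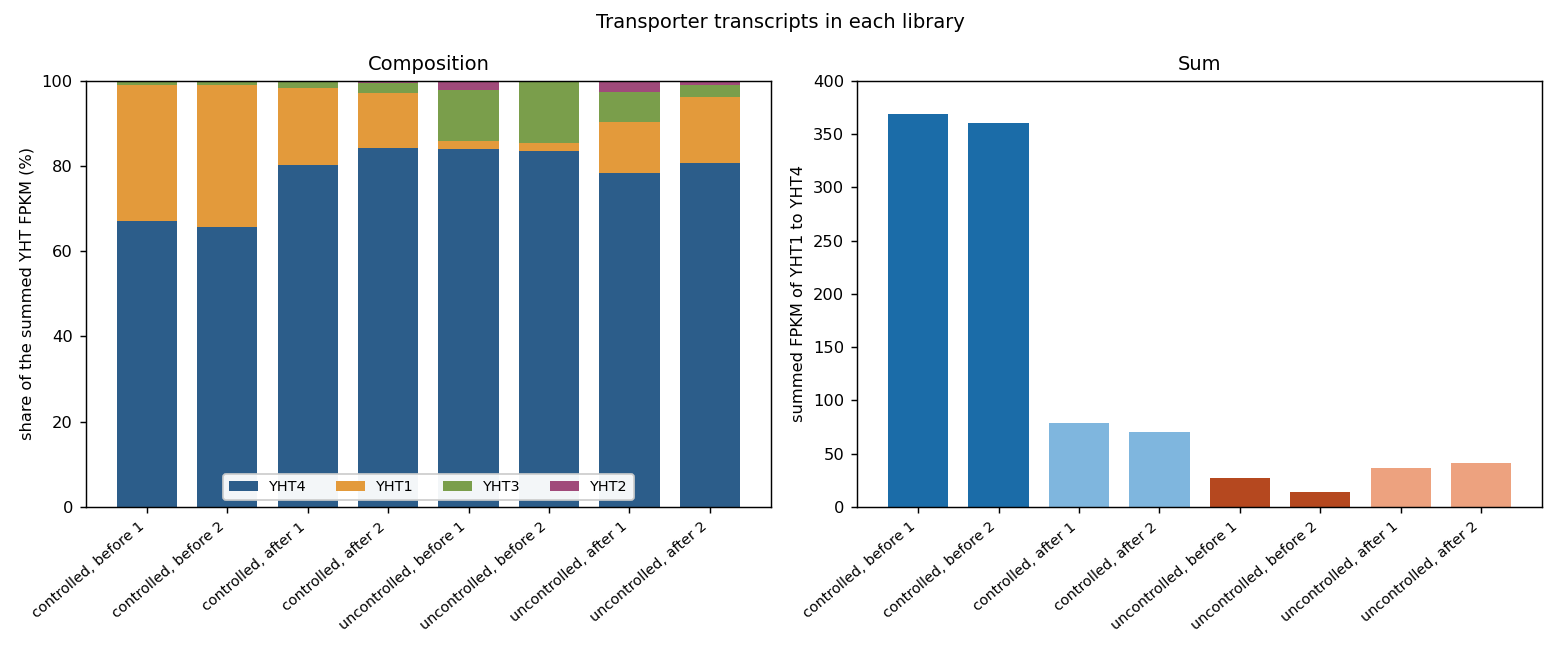
Left, the share (%) of each transporter in the summed FPKM of YHT1 to YHT4 in each library, and right, the sum in FPKM. YHT4 is the largest share in all 8 libraries, YHT1 is a visible share in all but the uncontrolled culture before glycerol limitation, and the sum falls from 369.2 to 13.7 FPKM across the range.

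GLK1 is 1 of 3 genes whose best KEGG hit is hexokinase. The gene YALI0_B22308g, the hexokinase of this yeast, was 186.49 and 181.35 FPKM in the controlled culture before and 168.13 and 182.70 FPKM after glycerol limitation. Libraries of the uncontrolled culture had 47.88 and 30.33 FPKM before and 122.65 and 140.57 FPKM after. Like GLK1 it was lowest in the uncontrolled culture before glycerol limitation, where it was 4.70-fold under the controlled culture (log2 fold change -2.24, SE 0.23, adjusted p = 0.00079). It rose 3.37-fold at glycerol limitation in that culture (log2 fold change 1.76, SE 0.23, adjusted p = 0.00043), and in the controlled culture its log2 fold change was -0.07 (adjusted p = 0.25). After glycerol limitation it was 1.33-fold lower without pO2 control (log2 fold change -0.41, SE 0.10, adjusted p = 0.021), a comparison in which GLK1 had a log2 fold change of -0.02. The difference between the responses was 1.83 (SE 0.27, adjusted p = 0.00051).

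GLK1 was above hexokinase in every library. The ratio of GLK1 to hexokinase FPKM was 1.49 and 1.58 in the controlled culture before glycerol limitation and 1.83 and 1.78 after, 3.29 and 3.39 in the uncontrolled culture before and 2.37 and 2.36 after. The 4 groups did not overlap in this ratio. The other gene, YALI0_E20207g, was lower, with 47.9 ± 0.7, 38.8 ± 2.4, 5.42 ± 1.08 and 8.05 ± 0.73 FPKM (SD, n = 2) in the same order of groups. It was called lower without pO2 control before (log2 fold change -2.94, adjusted p = 0.00012) and after glycerol limitation (-2.14, adjusted p = 0.00064), and in the uncontrolled culture its log2 fold change after glycerol limitation was 0.50 (adjusted p = 0.11).

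**Figure D4:**
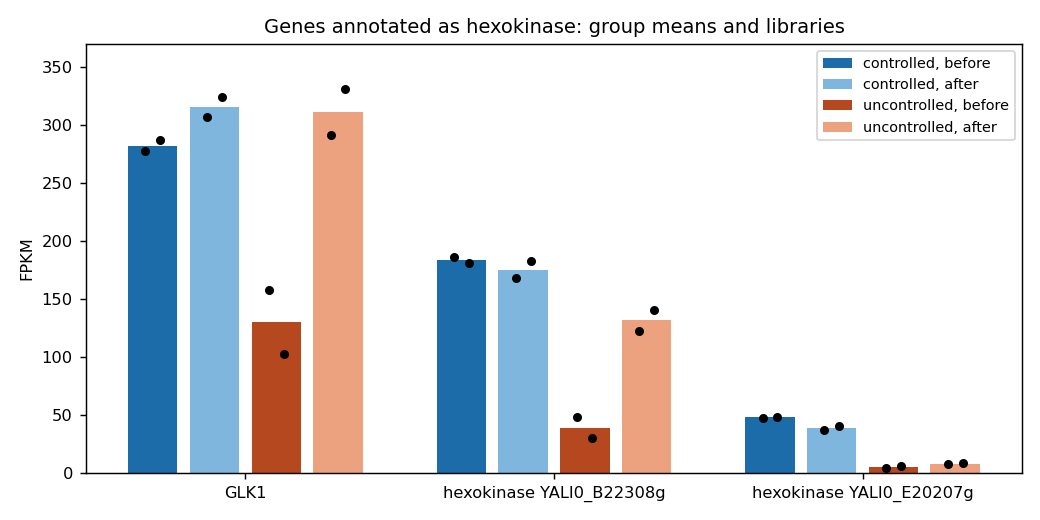
Level in FPKM of the 3 genes annotated as hexokinase, with bars for the mean of each group and points for its 2 libraries. GLK1 and hexokinase YALI0_B22308g are lowest in the uncontrolled culture before glycerol limitation, and YALI0_E20207g stays under 10 FPKM in that culture in both phases.

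The transporters belong to a larger group of 23 genes with an SP family number in the annotation. Without the members, 19 remain, of which 6 have a sterol glucosyltransferase as their best hit and the SP family only as a further one. In the controlled culture 11 of 18 tested rose after glycerol limitation by the adjusted p and 3 fell, where 45.6% and 36.0% of all genes did, and the median log2 fold change of the 18 was 0.45, against 0.13 over all genes. YHT1 and YHT4 were thus in the minority of the family that fell. Of the 16 tested in the uncontrolled culture 11 rose and 1 fell, where 48.9% and 21.5% of all genes did, with a median of 1.25 against 0.49 over all genes. Before glycerol limitation 12 of 17 tested were lower without pO2 control and 1 was higher, where 47.2% and 30.9% of all genes were, with a median of -1.30 against -0.31. After it 9 of 18 were lower and 1 was higher, where 28.5% and 21.5% of all genes were, with a median of -0.64 against -0.10. These counts and medians describe the list and were not tested as a set.

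Some of these genes had large changes of their own. YALI0_D00363g, annotated as a sugar:H+ symporter like the YHT genes, rose from 3.86 to 370.5 FPKM (group means) in the controlled culture (log2 fold change 6.26, adjusted p = 1.9e-08), and after glycerol limitation was above YHT4 there. Its mean also rose from 0.12 to 39.5 FPKM without pO2 control (log2 fold change 5.11, adjusted p = 1.8e-05). After glycerol limitation it was above the mean of YHT4 there too (30.7 FPKM). YALI0_F18084g, annotated as a major inositol transporter, had means of 214.1 and 205.2 FPKM with pO2 control, and rose from 0.81 to 258.7 FPKM without it (log2 fold change 7.16, adjusted p = 1.5e-06). YALI0_D00132g, with the same annotation, fell from 111.2 to 26.7 FPKM in the controlled culture (log2 fold change -2.02, adjusted p = 7.3e-07) and rose from 0.51 to 17.8 FPKM in the uncontrolled one (log2 fold change 3.60, adjusted p = 7.7e-05), in the directions of YHT1.

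YALI0_D01111g, the most abundant gene of the list in the controlled culture before glycerol limitation and one of those with a sterol glucosyltransferase as best hit, fell from 1220 to 205.3 FPKM in the controlled culture (log2 fold change -2.56, adjusted p = 1.7e-08). Without pO2 control its log2 fold change was -0.32 (adjusted p = 0.13). YALI0_F06776g, a sugar:H+ symporter, was the single gene of the list that was higher without pO2 control before glycerol limitation, with means of 526.7 against 218.4 FPKM (log2 fold change 1.27, adjusted p = 0.00013). Its mean was under that of YHT4 in the controlled culture before glycerol limitation (218.4 against 242.4 FPKM). In the other groups it was above YHT4, with 221.1 FPKM controlled after glycerol limitation and 526.7 and 186.3 FPKM uncontrolled before and after.

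**Figure D5:**
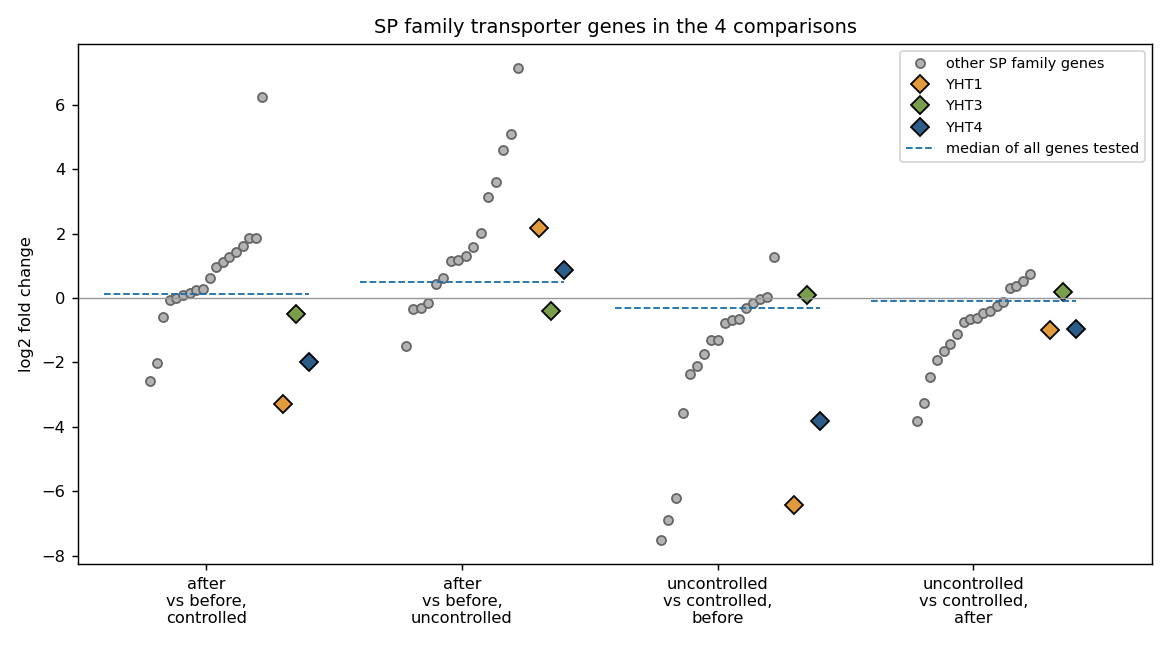
Log2 fold change of the SP family genes tested in each of the 4 comparisons, with grey points for the other genes of the family in order of their value and diamonds for YHT1, YHT3 and YHT4. The dashed line is the median of all genes tested, and YHT1 (-3.28) lies below every other SP family gene tested in the controlled culture.

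The genes of the enzymes that follow moved in both directions. Of 9 other glycolysis genes, 3 were higher and 6 lower after glycerol limitation in the controlled culture by the adjusted p, where 45.6% and 36.0% of all genes were, and the median of their log2 fold changes was -0.12 against 0.13 over all genes. With pO2 uncontrolled 2 were higher and 5 lower, where 48.9% and 21.5% of all genes were, with a median of -0.40 against 0.49. Before glycerol limitation 5 were higher and 2 lower without pO2 control, where 30.9% and 47.2% of all genes were (median 0.24 against -0.31). After it none was higher and 8 were lower, where 21.5% and 28.5% of all genes were (median -0.41 against -0.10). The glyceraldehyde 3-phosphate dehydrogenase gene YALI0_C06369g, the most abundant of the list, had means of 3542 and 4650 FPKM in the controlled culture and of 5357 and 2616 FPKM in the uncontrolled one. The phosphoglycerate kinase gene YALI0_D12400g, whose product makes ATP in glycolysis, fell from 3188 to 839.3 FPKM in the uncontrolled culture (log2 fold change -1.93, adjusted p = 2.6e-05), where GLK1 and YHT1 rose.

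The group means stood in the order of YHT4 for YALI0_F01584g, 1 of 2 genes annotated as triosephosphate isomerase, the enzyme that interconverts the 3-carbon sugar phosphates. Its means were 241.4 and 37.9 FPKM in the controlled culture and 5.68 and 17.8 FPKM in the uncontrolled one. The log2 fold changes were -2.64 (adjusted p = 5e-07) and 1.54 (adjusted p = 0.0028) after glycerol limitation, and -5.23 (adjusted p = 0.00011) without pO2 control before it. The other triosephosphate isomerase gene, YALI0_F05214g, was far more abundant, with means of 1716 and 1540 FPKM in the controlled and of 2660 and 1184 FPKM in the uncontrolled culture.

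Among 11 genes for the first uses of glucose 6-phosphate and its formation, which include the other 2 kinases, 4 were higher and 6 lower in the controlled culture after glycerol limitation, where 45.6% and 36.0% of all genes were, with a median of -0.30 against 0.13 over all genes. In the uncontrolled one 3 were higher and 5 lower, where 48.9% and 21.5% of all genes were (median 0.11 against 0.49). Without pO2 control 3 were higher and 6 lower before glycerol limitation, where 30.9% and 47.2% of all genes were (median -0.45 against -0.31), and none was higher and 7 were lower after it, where 21.5% and 28.5% were (median -0.41 against -0.10). The UTP-glucose-1-phosphate uridylyltransferase gene YALI0_A02310g, which supplies UDP-glucose, fell from 818.9 to 192.6 FPKM in the uncontrolled culture (log2 fold change -2.08, adjusted p = 1.6e-05). The glycogen synthase gene YALI0_F18502g fell there from 480.7 to 105.7 FPKM (log2 fold change -2.18, adjusted p = 2.5e-05). Both genes also fell with pO2 control. YALI0_A02310g went from 596.9 to 255.2 FPKM (-1.22 on the log2 scale, adjusted p = 3.2e-07). YALI0_F18502g went from 475.1 to 160.3 FPKM (-1.56, adjusted p = 2.3e-07). The trehalose 6-phosphate synthase/phosphatase gene YALI0_D14476g rose in the uncontrolled culture from 8.38 to 38.8 FPKM (log2 fold change 2.08, adjusted p = 0.0002), as GLK1 did there. In the controlled culture it fell (log2 fold change -0.38, adjusted p = 0.0047), where GLK1 had a log2 fold change of 0.16.

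Of 3 genes annotated as regulators of glucose use, the SNF1 protein kinase gene YALI0_D02101g, whose counterpart in *Saccharomyces cerevisiae* is needed for growth without glucose, had means of 206.7 and 222.0 FPKM in the controlled and of 204.1 and 176.0 FPKM in the uncontrolled culture. All 3 were higher after glycerol limitation in the controlled culture by the adjusted p, where 45.6% of all genes were, and the log2 fold change of the SNF1 gene, 0.10, was under the median of all genes, 0.13. The one called was the gene YALI0_F21923g with a weak hit to the zinc finger protein ADR1, at means of 2.35 and 22.3 FPKM (log2 fold change 2.79, adjusted p = 1.3e-05). In the uncontrolled culture 2 of the 3 were higher, where 48.9% of all genes were.

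YHT1 and YHT4 varied alike, with a Pearson r of 0.983 of their log2(FPKM + 1) over the 8 libraries, while r was -0.09 for YHT1 and YHT3 and 0.635 for YHT1 and GLK1. The 8 points are 4 groups of 2, so r largely reflects the group means. Of 5894 genes compared, the 5 nearest to YHT1 (r of 0.997 to 0.998) were YALI0_E18832g and YALI0_D05093g, annotated as subunits of DNA polymerases alpha and delta, YALI0_A07447g, annotated as a multidrug transporter, YALI0_A02607g and YALI0_D23463g. The 5 nearest to YHT4 (r of 0.995 to 0.996) were YALI0_C23947g, YALI0_C20273g, YALI0_F22495g, the triosephosphate isomerase gene YALI0_F01584g and YALI0_E05357g. The 5 nearest to GLK1 (r of 0.985 to 0.994) were led by the ammonium transporter gene YALI0_F16896g, with means of 385.6, 411.2, 111.6 and 447.7 FPKM from the controlled culture before glycerol limitation to the uncontrolled culture after it. For YHT2 and YHT3 the highest r were 0.960 and 0.892, on values of few fragments.

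Levels of the genes next to the members are given as a description. Beside YHT1, YALI0_C06391g, 2840 bases away, had means of 3.55, 6.07, 3.04 and 6.99 FPKM in the same order, and YALI0_C06446g, 935 bases away, had 88.5, 95.1, 123.6 and 64.0 FPKM. Beside YHT4, YALI0_E23265g, annotated as an mRNA export factor, had 120.7, 133.7, 96.7 and 134.2 FPKM, and YALI0_E23320g had 3.64, 10.6, 4.82 and 6.79 FPKM. YHT2, itself barely detected, lies 561 bases from YALI0_C08921g, whose means were 1.69, 125.6, 0.26 and 6.99 FPKM. On its other side, 1957 bases away, YALI0_C08960g, annotated as separase, had 28.02, 7.68, 9.75 and 13.7 FPKM. Beside YHT3, YALI0_F19162g, 397 bases away, had 81.4, 85.9, 712.8 and 84.3 FPKM, so it was high in the group where YHT1 and YHT4 were lowest. Beside GLK1, YALI0_E15466g had 18.4, 82.3, 65.2 and 88.5 FPKM and YALI0_E15510g, with a homeobox protein as its hit, had 23.6, 8.34, 150.2 and 118.2 FPKM. The YHT genes are members of a family with the same annotation number, which is the best hit of 11 genes in all, and how fragments that fit several copies were assigned was not stated, so low values such as those of YHT2 and YHT3 are the less certain.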

How the data were processed

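The values are FPKM that the authors deposited. Reads were checked with FastQC, TopHat2 placed the pairs on assembly CLIB122, and Cufflinks gave each gene's level in each library. Versions were not given in the sources used here. The tables of the controlled (6371 genes) and uncontrolled (6386 genes) libraries were joined by locus tag, and a gene missing from one was taken as 0. Samples were grouped by their labels, and the phase by the study's account.

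Genes that reached an FPKM of 1 in 2 or more fitted libraries were tested with limma 3.58.1 in R 4.3.3, on log2(FPKM + 1) with a variance trend and 2 residual degrees of freedom (4 for the response difference). The fit was tested on simulated data. Fragments were approximated from the steps between low FPKM values, of which 96.7% to 98.1% came within 0.1 of whole numbers. They entered no test across genes, and exact counting intervals at 95% cover counting error only.

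The members and lists were chosen with earlier results of these data known. Besides all members, the text names hexokinase, listed genes past the call or with the largest significant change, the 5 genes with the highest r (mean FPKM of at least 5) and neighbours, not all of them. Lists were defined by KEGG numbers. Alternatives were the pseudocount, filter, scaling, variance trend, libraries fitted, replicate block, each replicate left out and fold minimum. Other steps used Python 3.11.15, pandas 2.3.3, matplotlib 3.10.9, scipy 1.17.1 and numpy 2.4.6. Sequences were not used here.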

Additional observations from a re-analysis of the deposited data

Results flagged for a closer look

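The response to glycerol limitation differed between the cultures for 3 of the 4 members tested, by the interaction term of limma over 8 libraries. By the adjusted p alone all 3 had a higher response without pO2 control, as 38.1% of all genes did, while 29.1% had a lower one. YHT1 fell with pO2 control and rose without it, a difference of 5.46 on the log2 scale (adjusted p = 5.8e-06). For YHT4 the difference was 2.85 (adjusted p = 0.00026), though its rise without pO2 control was lost under some alternatives. For GLK1 the difference was 1.12 (adjusted p = 0.0049). By the adjusted p of the main fit all 3 genes were higher after glycerol limitation in the uncontrolled culture, where 48.9% of all genes were.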

How the results depend on the processing

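No member changed its called direction in the 222 alternatives run for members, and 208 left it on the same side of the adjusted p. Runs in which a member failed the filter are not among the 222. YHT1 failed it in the uncontrolled culture without either replicate after glycerol limitation, and with a minimum of 5 FPKM. Between the cultures before glycerol limitation, YHT1 failed it without either controlled replicate. The call, which also needs the fold minimum, was kept in 218: YHT4 in the controlled culture gained it under median-of-ratios scaling (-2.09) and without either of 2 replicates (-2.01 and -2.02), and YHT1 in the uncontrolled culture lost it under median-of-ratios scaling (1.91). In the controlled culture GLK1 (0.16) lost its adjusted p under median-of-ratios scaling (0.0393, adjusted p = 0.41), without the variance trend (0.0535) and with all 8 libraries in 1 fit (0.45), and YHT3 (-0.49) gained it without the trend (0.0423). In the uncontrolled culture YHT4 (0.88) lost it without the filter (0.0512), under median-of-ratios scaling (0.42, adjusted p = 0.27) and without the trend (0.0502). With each replicate left out in turn, log2 fold changes ranged from 0.12 to 0.20 for GLK1 in the controlled culture (adjusted p 0.011 to 0.052), from 0.42 to 1.35 for YHT4 in the uncontrolled culture (0.004 to 0.19) and from -1.27 to -0.69 for YHT1 between the cultures after glycerol limitation (0.010 to 0.24). A group left with 1 library is there assumed to vary like the other group. With a log2 minimum of 1 in place of 2, the genes called numbered 2187 in place of 859 in the controlled culture, 2827 in place of 1011 in the uncontrolled culture, 3166 in place of 1449 before and 899 in place of 196 after glycerol limitation, and 2865 for the response difference. With no minimum they numbered 5075, 4350, 4808, 3104 and 4219. Median-of-ratios scaling moved the split of calls in the uncontrolled culture from 701 higher and 310 lower to 486 and 497, and before glycerol limitation from 565 and 884 to 715 and 712. By approximate fragments, in which genes of longer span weigh more, YHT4 was 75.98%, 88.1%, 88.93% and 86.12% of the YHT genes, in place of 66.4%, 82.3%, 83.7% and 79.6% of FPKM. The span was taken on the chromosome with any introns included, so these shares of fragments may be too high for YHT4.

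With the replicate block the number of calls was again 859 in the controlled culture, 1011 in the uncontrolled culture and 1449 before glycerol limitation, 197 in place of 196 after it, and for the response difference 743 higher and 429 lower in place of 742 and 430. It changed the call of no member. Whether the replicate numbers pair the samples is not stated. The deviations of same-numbered libraries had r of -0.052 to 0.042 over the genes, which cannot show whether they came from the same fermentation. Depth limits YHT2, YHT3 and YHT1 in the uncontrolled culture before glycerol limitation.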
